A study of Mus musculus with 60 samples.

Results

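The comparison concerned the liver of mice exposed once to 28Si ions and examined at 2 months against 1 month after exposure. Its members, taken by label, are the 6 libraries labelled 28Si at these times, 3 at 1 month and 3 at 2 months. The series holds 60 libraries. The 6 libraries compared came from male C3H/HeNCrl mice, 8 to 10 weeks old at exposure, that received 28Si at 0.2 Gy to the total body. The left lobe of the liver was taken at 30 or 60 days. Control mice of the same strain and sex were not irradiated or were sham irradiated and were collected at the same times, and 2 more groups received 56Fe or 16O ions. Each library came from a different mouse, so that the 1 and 2 month values are from separate animals and no mouse was followed over time. A single strain, sex and dose, and 3 mice a group, limit what the comparison covers. After irradiation all animals were shipped to a second facility and quarantined there for 1 month, and the hour of the day at which liver was collected is not given in the sources used here.

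The values are RPKM, reads per kilobase of transcript scaled to the mapped reads of the library, summed over the transcripts of each gene. Low values fell on whole multiples of a single read, which placed the depth of the 6 libraries between 15198002 and 24781298 read pairs. Rank correlations between the 6 libraries lay between 0.907 and 0.925. The labelled tissue was checked against 12 hepatocyte markers, which summed to 24810 to 34175 RPKM at 1 month and 22715 to 34117 RPKM at 2 months.

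Liver follows a daily rhythm. The transcription factors ARNTL (also called BMAL1) and CLOCK pair on E-box sequences and switch on genes of the Per and Cry families, whose proteins return to block the pair, while the nuclear receptors of the ROR and REV-ERB families act on Arntl itself through ROR elements. The factors DBP, TEF and HLF carry the rhythm to other genes through D-box sequences, among them genes of lipid, glucose and xenobiotic metabolism. Metallothioneins are small proteins that bind zinc and copper, and the factor MTF1 switches their genes on through metal response elements when free zinc rises.

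Promoter sequence is shown for genes of these 2 systems that the results turn on, from RefSeq on GRCm38.p6, with capitals marking the motif searched on both strands. The motifs were CACGTG for the E-box, TTATGTAA or TTACGTAA for the D-box, TAGGTCA or TAGGTTA for the ROR element, and TGCACNC or TGCGCNC for the metal response element. Of 16 clock genes looked up, 13 had a promoter window of 250 bases before and 50 after the start, and 4 of these genes held an E-box, compared with 8.09% of the 27025 genes with a window. The D-box stood in Per3 alone and the ROR element in Arntl alone among the 13, against 1.23% and 4.61% of all genes with a window. A metal response element was present in all 4 metal genes looked up, Mt1, Mt2, Slc30a1 and Slc30a10, but also in 28.2% of all genes with a window. Ciart, which encodes a repressor of the ARNTL and CLOCK pair, held 3 E-boxes at bases -116, -58 and -44 (chr3:95882229-95882378, minus strand). Per3 held 2 D-boxes at bases -205 and -158 (chr4:151044766-151044915, minus strand). In Arntl the ROR elements began at base -6 (chr7:113207496-113207520, plus strand) and base 31 (chr7:113207531-113207556, plus strand) of its second annotated start. The metal response elements shown are that of Mt1 at base -23 (chr8:94178989-94179088, plus strand) and those of Mt2 at bases -128 and -50 (chr8:94172468-94172617, plus strand). Positions count from the RefSeq start, and that of Mt2 lies 46 bases before the start in the annotation used for gene coordinates, from which the Mt2 elements lie at bases -174 and -96.
Ciart: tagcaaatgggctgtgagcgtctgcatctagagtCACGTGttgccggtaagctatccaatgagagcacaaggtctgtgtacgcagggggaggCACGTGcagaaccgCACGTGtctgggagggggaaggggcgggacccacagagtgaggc
Per3: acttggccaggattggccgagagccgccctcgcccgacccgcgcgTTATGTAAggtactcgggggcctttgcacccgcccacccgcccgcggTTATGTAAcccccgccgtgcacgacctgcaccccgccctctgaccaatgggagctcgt
Arntl, first site: gtcggaaagTAGGTTAgtggtgcga
Arntl, second site: aggcagaaagTAGGTCAgggacggag
Mt1: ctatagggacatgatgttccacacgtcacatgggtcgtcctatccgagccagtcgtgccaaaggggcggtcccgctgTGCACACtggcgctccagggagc
Mt2: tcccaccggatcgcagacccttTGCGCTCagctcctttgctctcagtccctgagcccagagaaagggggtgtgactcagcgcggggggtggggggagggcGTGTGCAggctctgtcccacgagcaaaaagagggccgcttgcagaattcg

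Between 1 and 2 months after 28Si, both metallothionein genes had the largest rises and clock genes shifted, with Arntl and Clock falling and Per3, Ciart, Dbp, Tef, Usp2 and Wee1 rising. In the fatty acid list 9 of 22 genes fell and in the cholesterol list 5 of 25, and Nr0b2, Tubb2a, G6pc and Ppp1r3b fell as well. Of 11059 genes tested, 83 (0.751%) passed adjusted p of 0.05 with at least a 2-fold change, by limma with Benjamini-Hochberg adjustment on log2(RPKM + 0.1), and 44 were higher and 39 lower at 2 months. In all 83, which were chosen on these same mice, the 3 mice at 2 months did not overlap the 3 at 1 month, and 11.9% of all genes tested had no overlap. At adjusted p of 0.05 without the fold requirement, 111 genes rose (1.00%) and 125 fell (1.13%), and these shares are the background for the gene lists that follow. Those lists were chosen with earlier results of these data known. The count of 83 fell to 48 without 28Si 2 month replicate 2. On RPKM as deposited, with no scaling between libraries, 123 genes passed, 52 higher and 71 lower.

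Of the 14 core clock genes tested, 3 rose and 2 fell, and of the 9 clock output genes tested, 4 rose and 5 did not pass. Arntl (chr7:113207465-113314126) read 3.80, 2.31 and 2.88 RPKM at 1 month and 0.565, 0.507 and 0.194 RPKM at 2 months, a difference of -2.53 ± 0.35 (log2, SE, n = 3 and 3, limma adjusted p = 0.00864). Its partner Clock (chr5:76209868-76304792) fell from 10.9, 8.71 and 9.27 RPKM to 4.00, 3.75 and 5.10 RPKM, by 1.06 on the log2 scale (limma adjusted p = 0.00242). The mice at 1 month were all above those at 2 months for both genes, and the gap was wider for Arntl.

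Other clock genes rose. Per3 (chr4:151003652-151044665), a member of the Period family, read 0.811, 1.06 and 1.21 RPKM at 1 month and 3.12, 3.27 and 4.47 RPKM at 2 months, a log2 difference of 1.81 ± 0.21 (SE, limma adjusted p = 0.00376). Ciart (chr3:95878503-95882251) rose from 0.352, 0.207 and 0.270 RPKM to 1.08, 1.16 and 3.37 RPKM, by 2.30 ± 0.33 (log2, SE, limma adjusted p = 0.0102). Ciart was under 0.5 RPKM in all 3 mice at 1 month, and the third mouse at 2 months stood above the other two.

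Among output factors, Dbp (chr7:45705088-45710203), the D-box activator, had the lowest adjusted p of both lists. It read 15.2, 13.7 and 16.9 RPKM at 1 month and 42.4, 45.2 and 65.2 RPKM at 2 months, which is 3.49-fold (log2 1.80 ± 0.12, SE, limma adjusted p = 0.000726). Tef, of the same family, read 32.99, 29.3 and 35.3 RPKM and then 48.5, 56.5 and 72.6 RPKM (log2 0.94, limma adjusted p = 0.00594). Every mouse at 2 months was above every mouse at 1 month in both genes. Usp2, a deubiquitinase under clock control, rose from 0.610, 0.0418 and 0.164 RPKM to 1.21, 1.86 and 4.37 RPKM (limma adjusted p = 0.0217), and its log2 difference of 3.02 became 1.42 with a pseudocount of 1 RPKM. The call of Usp2 was lost in 4 of 18 alternatives, among them those without 28Si 2 month replicate 2 or 3. Usp2 was not tested with a filter at 2 RPKM. Wee1, the cell cycle kinase, rose from 0.269, 0.177 and 0.233 RPKM to 0.674, 0.541 and 1.58 RPKM (log2 1.61, limma adjusted p = 0.0375), and the call was lost in 6 of 15 alternatives, among them a pseudocount of 1 RPKM (log2 0.63) and each 1 month mouse left out. With that pseudocount Arntl was at -1.42 and Ciart at 1.11. Arntl kept the call in all 19 alternatives, and Ciart in the 15 that tested it. Ciart and Wee1 reached 0.5 RPKM in 3 libraries only through the 2 month mice. Neither was tested with any 1 of these mice left out or with a filter at 2 RPKM.

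The other core members did not pass. Per2 read 1.60, 1.66 and 2.61 RPKM at 1 month and 2.57, 2.93 and 4.14 RPKM at 2 months (log2 0.78, limma adjusted p = 0.118), and Bhlhe41, a repressor of E-box genes, differed by 1.37 (limma adjusted p = 0.0564). The REV-ERB alpha gene Nr1d1 differed by -0.19 (limma adjusted p = 0.526) with overlapping groups. Per1 was 1.10, 1.10 and 3.60 RPKM at 2 months, the high value again in the third mouse, against 1.09 to 1.23 RPKM at 1 month. Without that mouse, or without the second mouse at 2 months, the count of core clock genes that rose was 1 rather than 3. In these fits 13 were still tested, and Ciart was not among them. Whether the hour of collection differed between the times was not tested.

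**Figure D1:**
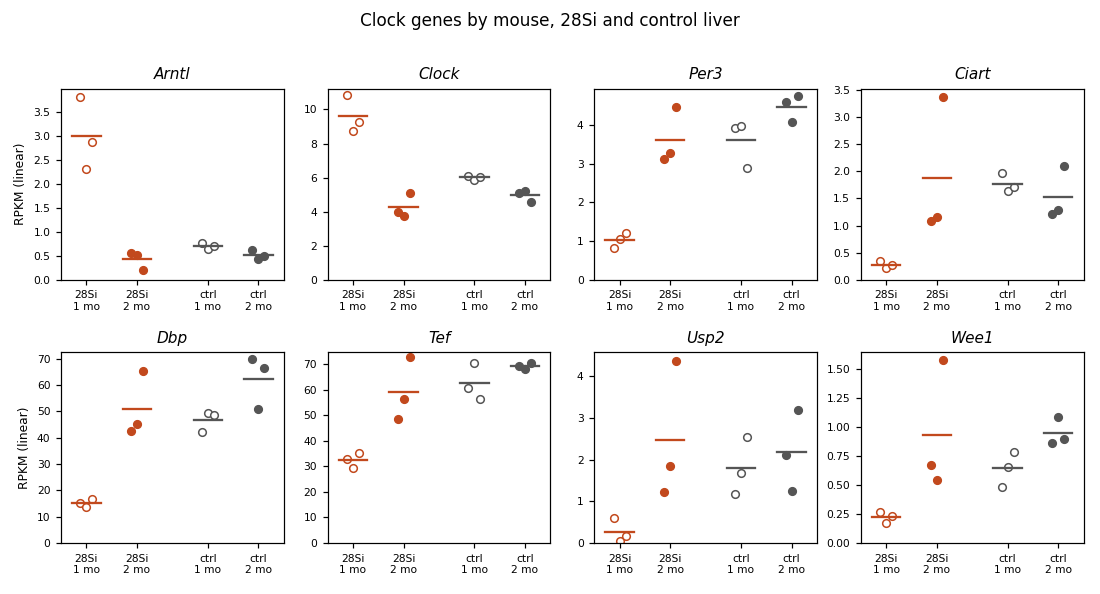
RPKM (linear axis) of 8 clock genes in each mouse, with open points for 1 month, filled points for 2 months and a bar for the mean of 3 mice, in 28Si and control liver. The 28Si mice at 1 month stand apart from the other 3 groups, with Arntl at 2.31 to 3.80 RPKM and Dbp at 13.7 to 16.9 RPKM.

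Placed beside the 54 libraries of other groups and times, it was the 1 month 28Si mice that lay at the edge of the series. These ranks use RPKM as deposited, with no scaling between libraries, and include libraries of 4, 9 and 12 months. The share of mapped reads in transcripts was 56.0% to 88.4% in those later libraries and 43.4% to 66.4% at 1 and 2 months. What this does to the ranks was not tested. Their Dbp was below 53 of the 54 libraries, whose median was 55.4 RPKM, while the 2 month mice lay within the range of the rest. Arntl at 1 month was above 52 of the 54 libraries in all 3 mice, and the highest of the 54 read 2.64 RPKM. All 54 exceeded the 3 mice in Ciart, and 52 of 54 exceeded them in Per3. Clock at 1 month was above 50 of the 54 libraries in all 3 mice.

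Both metallothionein genes rose by more than any other gene tested that passed. Mt2 (chr8:94172664-94173568) read 3.397, 0.554 and 1.10 RPKM at 1 month and 54.9, 37.1 and 43.3 RPKM at 2 months, a 34.1-fold difference (log2 5.09 ± 0.43, SE, limma adjusted p = 0.00116). Mt1 (chr8:94179082-94180327) read 12.9, 3.73 and 5.63 RPKM and then 91.3, 88.5 and 88.2 RPKM, a 14.5-fold difference (log2 3.86 ± 0.29, SE, limma adjusted p = 0.000941). Every mouse at 2 months was far above every mouse at 1 month, and Mt1 was nearly equal in the 3 mice at 2 months. The manganese exporter gene Slc30a10 fell from 8.03, 5.94 and 8.24 RPKM to 3.34, 2.33 and 3.32 RPKM (log2 -1.19, limma adjusted p = 0.00796). Of the 8 genes tested in the metallothionein and zinc list, these 3 passed, and Mtf1 itself differed by 0.05 (limma adjusted p = 0.928). The zinc exporter gene Slc30a1 read 3.87 to 7.205 RPKM at 1 month and 4.09 to 6.46 RPKM at 2 months.

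Genes that build fatty acids and triglycerides were lower at 2 months. Of 22 tested, 9 fell and 13 did not pass, and the median log2 difference was -0.53, compared with -0.00177 over all genes tested. Acly, which makes cytosolic acetyl-CoA from citrate, read 103, 83.5 and 94.3 RPKM at 1 month and 39.3, 29.5 and 49.9 RPKM at 2 months (log2 -1.17 ± 0.12, SE, limma adjusted p = 0.00339). Fasn, the fatty acid synthase, read 149, 124 and 153 RPKM and then 66.7, 41.1 and 89.1 RPKM (log2 -1.08, limma adjusted p = 0.0219). Acacb and Scd1, the acetyl-CoA carboxylase of mitochondria and the main liver desaturase, fell by 1.08 and by 0.92 on the log2 scale (limma adjusted p = 0.0259 and 0.024). The groups did not overlap in any of these 4 genes.

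Elovl3, an elongase of very long chain fatty acids whose liver level follows both the clock and male hormones, had the largest fall of the list. It read 143, 125 and 99.9 RPKM at 1 month and 31.9, 43.8 and 35.8 RPKM at 2 months (log2 -1.62 ± 0.17, SE, limma adjusted p = 0.00345). Me1, Gpam, Elovl5 and Acss2 fell by between 0.53 and 0.79 on the log2 scale. Their regulator Srebf1 read 72.4 to 93.0 RPKM at 1 month and 56.2 to 89.7 RPKM at 2 months and did not pass (log2 -0.14, limma adjusted p = 0.596). Counts of the list were less steady than its median, since leaving out any of 4 single mice (28Si 1 month replicates 2 and 3, 28Si 2 month replicates 2 and 3) left 3 or 4 members that fell, with medians between -0.56 and -0.43. With all 60 libraries in the fit, limma called none of 24 members.

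Cholesterol synthesis followed the same direction with smaller sizes. Of 25 genes tested, 5 fell and 20 did not pass, 23 had a negative difference, and the median was -0.31. Pmvk, a kinase of the mevalonate pathway, read 32.6, 20.9 and 27.1 RPKM at 1 month and 13.4, 12.2 and 17.4 RPKM at 2 months (log2 -0.81, limma adjusted p = 0.00805). Mvd, Hmgcs1, Sc5d and Insig1 fell by 1.00, 0.88, 0.69 and 0.66 on the log2 scale. The count of 5 fell to 1 without 28Si 2 month replicate 2, to 2 without 28Si 1 month replicate 3 and to 3 without 28Si 2 month replicate 1 or 28Si 1 month replicate 2.

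Storage and release of glucose showed changes of single steps. Gys2, the liver glycogen synthase, rose from 41.1, 28.4 and 29.2 RPKM to 56.3, 64.2 and 85.5 RPKM (log2 1.15 ± 0.11, SE, limma adjusted p = 0.00221). Ppp1r3b, which brings protein phosphatase to glycogen, fell from 23.2, 15.9 and 24.5 RPKM to 5.71, 3.39 and 12.0 RPKM (log2 -1.65, limma adjusted p = 0.0251). Neither gene overlapped between the times, and the other 12 of 14 glycogen genes tested did not pass.

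G6pc (chr11:101367561-101377903), the catalytic subunit that releases free glucose, read 56.3, 65.0 and 26.1 RPKM at 1 month and 7.01, 6.03 and 24.6 RPKM at 2 months (log2 -2.07 ± 0.44, SE, limma adjusted p = 0.046). A mouse at 1 month and a mouse at 2 months nearly met, and the call was lost in 8 of 19 alternatives. Its partner Slc37a4, the glucose 6-phosphate transporter, rose by 0.82 (limma adjusted p = 0.00353), while Tat, the tyrosine aminotransferase, fell by 1.20 (limma adjusted p = 0.00516). Pck1, the other main gluconeogenic enzyme gene, differed by -0.12 (limma adjusted p = 0.884), and 9 of 12 gluconeogenesis genes did not pass.

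Signals of the fed and fasted state were mixed. Of 16 genes of the feeding and glucocorticoid list, 3 fell (Tat, Insig2 and Igfbp1) and the list median was -0.01. Igfbp1, an insulin-suppressed binding protein, read 11.6, 11.3 and 5.49 RPKM at 1 month and 2.89, 3.56 and 3.36 RPKM at 2 months (log2 -1.34 ± 0.26, SE, limma adjusted p = 0.0313), a call lost in 7 of 19 alternatives. Of 34 PPARA targets tested, Pdk4 fell from 2.76, 0.743 and 2.23 RPKM to 0.340, 0.278 and 0.232 RPKM (limma adjusted p = 0.0242). Pdk4 reached 0.5 RPKM only in the 1 month mice and was not tested with any 1 of them left out. Cpt1a, the gate of mitochondrial fatty acid oxidation, rose by 0.56 (limma adjusted p = 0.0396) with overlapping groups. Its call was lost in 10 of 19 alternatives, among them every fit with 1 mouse left out.

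Nr0b2 (chr4:133553376-133556536), which encodes the repressor SHP of bile acid synthesis, read 16.3, 12.9 and 23.9 RPKM at 1 month and 2.56, 2.82 and 5.20 RPKM at 2 months. Its log2 difference was -2.23 ± 0.23 (SE, limma adjusted p = 0.00339), and all 19 alternatives kept the call. It was the only 1 of 19 bile acid genes tested that passed. Cyp7a1, the rate-limiting enzyme of bile acid synthesis, was 50.4, 39.3 and 20.7 RPKM at 1 month and 66.3, 51.7 and 81.4 RPKM at 2 months, and did not pass (log2 1.01, limma adjusted p = 0.0824). In the xenobiotic list 2 of 29 rose. Por, the reductase that feeds electrons to microsomal cytochromes P450, read 62.3, 42.96 and 44.5 RPKM and then 115, 86.2 and 111 RPKM (log2 1.16, limma adjusted p = 0.00353), and Cyp2a5, which oxidizes coumarin and nicotine, rose by 1.42 (limma adjusted p = 0.00128).

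**Figure D2:**
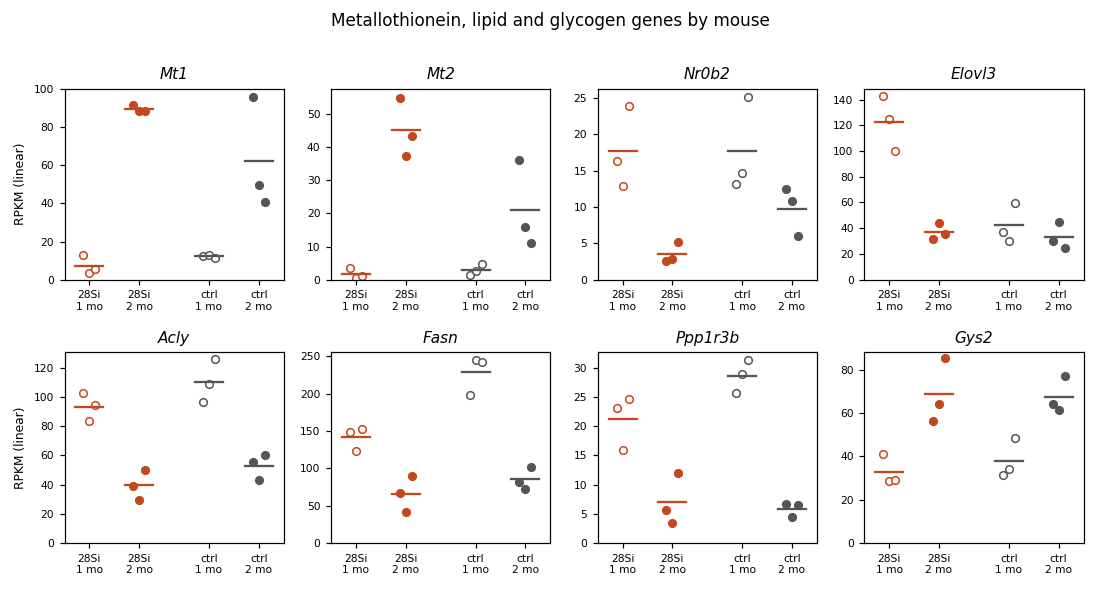
RPKM (linear axis) of 8 genes of metal binding, lipid, bile acid and glycogen metabolism in each mouse, with open points for 1 month, filled points for 2 months and a bar for the mean of 3 mice. In 28Si liver Mt1 goes from 3.73 to 12.9 RPKM at 1 month to 88.2 to 91.3 RPKM at 2 months, and Acly, Fasn and Ppp1r3b fall in 28Si and control liver alike.

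The remaining genes with the largest changes belonged to no single list. Tubb2a (chr13:34074274-34078007), a beta tubulin, read 23.8, 16.1 and 22.7 RPKM at 1 month and 6.13, 3.00 and 3.73 RPKM at 2 months (log2 -2.21 ± 0.25, SE, limma adjusted p = 0.00353). Chka, the choline kinase that opens phosphatidylcholine synthesis, fell from 19.4, 20.8 and 31.1 RPKM to 7.44, 6.80 and 7.54 RPKM (log2 -1.58, limma adjusted p = 0.0074), and its 1 month mice were above all 54 libraries of other groups and times. Lgalsl, Mug2, Insc and Spon2 fell by between 1.25 and 1.38 on the log2 scale, each without overlap between the times. The call of Mug2 was lost in 6 of 19 alternatives and that of Spon2 in 5 of 19. AC157910.3, a gene without an assigned role, read 79.6, 121 and 98.1 RPKM and then 18.7, 12.4 and 47.02 RPKM (limma adjusted p = 0.023). Its call was lost in 5 of 18 alternatives.

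On the rising side, Gpcpd1, which splits glycerophosphocholine, read 14.9, 15.6 and 8.89 RPKM at 1 month and 32.6, 51.7 and 41.6 RPKM at 2 months (log2 1.78 ± 0.24, SE, limma adjusted p = 0.00805). Nrg4, a secreted ligand of the ERBB4 receptor, rose from 1.79, 1.30 and 2.00 RPKM to 3.75, 4.82 and 6.02 RPKM (log2 1.55, limma adjusted p = 0.00353). Nmrk1, a kinase of nicotinamide riboside in NAD synthesis, rose from 2.82, 3.98 and 3.02 RPKM to 6.75, 9.45 and 10.1 RPKM (log2 1.48, limma adjusted p = 0.00924). The groups did not overlap in these 3 genes. Eif4ebp3, Gbp11, Osbpl3, Pcsk4 and the unnamed gene model Gm45044 rose by between 1.53 and 1.64 on the log2 scale. Eif4ebp3 encodes a repressor of translation initiation, Osbpl3 an oxysterol-binding protein relative and Pcsk4 a proprotein convertase. Gbp11 bears the name of the guanylate-binding protein family but was not classed as protein-coding in the annotation used. The calls of Gm45044 and Pcsk4 were lost in 8 of 18 and 7 of 19 alternatives.

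**Figure D3:**
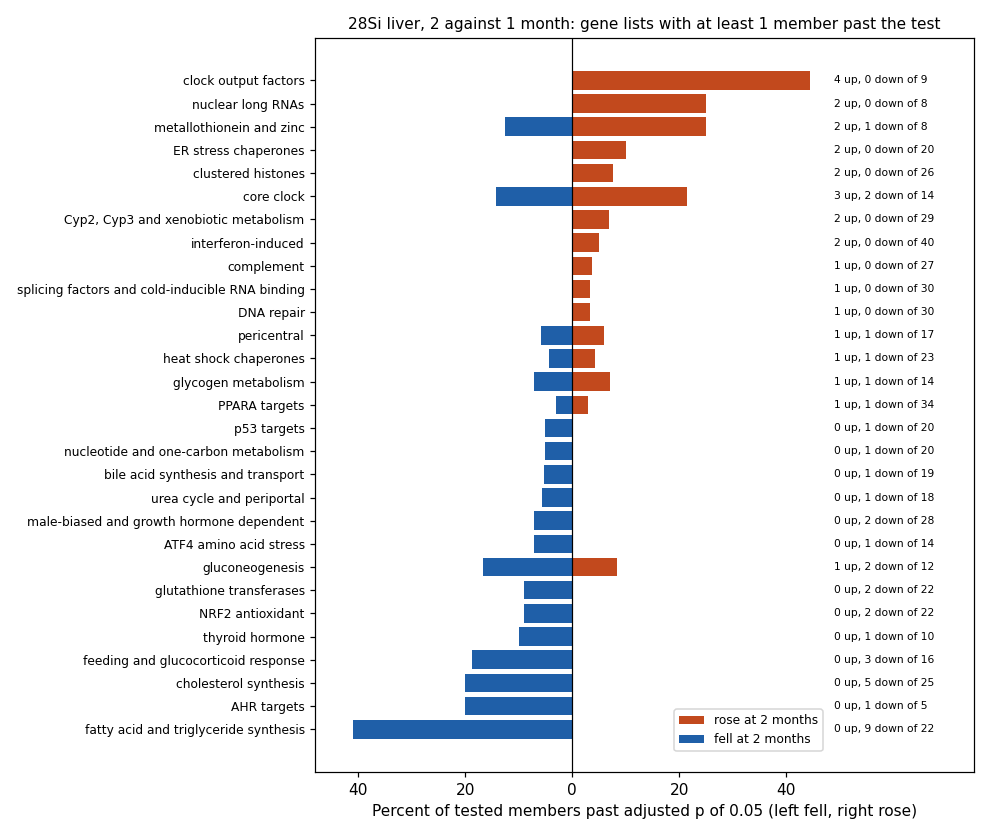
Percent of tested members of each gene list that fell (left, blue) or rose (right, red) at adjusted p of 0.05 between 1 and 2 months after 28Si, for the 29 lists with at least 1 such member, with counts at the right. The longest bars are the fatty acid and triglyceride list, 9 of 22 fallen, and the clock output list, 4 of 9 risen.

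Stress and damage lists changed in few members. In the ER stress list 2 of 20 rose, Creld2 from 15.8, 9.51 and 19.6 RPKM to 27.3, 31.2 and 35.5 RPKM (log2 1.21, limma adjusted p = 0.0175) and the chaperone gene Hyou1 by 0.56. Of 20 p53 targets tested, Trp53inp1 fell by 0.58 (limma adjusted p = 0.0259), and of 30 DNA repair genes, the uracil glycosylase gene Ung rose from 0.883 to 0.981 RPKM at 1 month to 1.70 to 1.90 RPKM at 2 months (log2 0.99, limma adjusted p = 0.0259). Gclc, the rate-limiting enzyme gene of glutathione synthesis, fell by 0.62 (limma adjusted p = 0.0236), and 2 of 22 NRF2 genes and 2 of 22 glutathione transferases fell. Of 23 heat shock genes, Bag3 fell by 0.74 and the cold-inducible Cirbp rose by 0.60 on the log2 scale.

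Among 40 interferon-induced genes, Tap1, the peptide transporter of antigen presentation, and Xaf1 rose, and 38 of the 40 had a positive difference, against 49.6% of all genes tested, with a median of 0.25. In controls the median of this list was 0.33 and 2 members passed. The linker histone genes, Hist1h1e and Hist1h1c, rose by 0.85 and 0.78 (log2) among 26 clustered histones tested, and Rian and Meg3, imprinted long RNAs that lie together on chromosome 12, rose by 1.09 and 1.05 among 8 nuclear long RNAs. These calls were not steady: that of Meg3 was lost in 12 of 17 alternatives, that of Rian in 9 of 18, those of Tap1, Hyou1 and Atf5 in 11 of 19 each, and those of Xaf1, Trp53inp1 and Cirbp in 10 of 19 each. In the complement list C4a rose by 1.05 (limma adjusted p = 0.0298), and the authors' counting could split reads with its near-identical copy C4b. Single falls were seen in the lists of AHR targets (Ahr), ATF4 stress (Atf5) and periportal genes (Cdh1).

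In 17 of the 46 lists no member passed limma's test, among them glycolysis, apolipoproteins, major urinary proteins, haem and iron, immediate early genes, cell cycle, acute phase, coagulation, NF-kB, insulin signalling, oxidative phosphorylation and ribosomal proteins. These lists held 433 tested genes, 69 of which had an unadjusted p under 0.05, and limma-voom on estimated reads called 2 of them. Of 78 cytosolic ribosomal protein genes tested, 69 had a negative and 9 a positive difference, while 49.6% of all genes tested were positive. The median of the ribosomal list was -0.15 in 28Si and -0.0047 in control liver. The 13 mitochondrially encoded protein genes all had a positive difference, with a median of 0.57, and the lowest adjusted p was 0.0749. Their share of all RPKM was 6.73% to 7.85% in the 3 libraries at 1 month and 7.46% to 13.7% at 2 months. The share of mapped reads in transcripts overlapped between the times, at 49.6% to 66.4% and 49.7% to 62.3%.

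Markers of other liver cell types showed no change that passed. In limma's test 14 Kupffer cell markers gave an adjusted p of at least 0.119, with 3 at an unadjusted p under 0.05 and none called by limma-voom, and their summed level was 69.3 to 87.8 RPKM at 1 month and 73.2 to 90.0 RPKM at 2 months. Sinusoidal endothelial markers summed to 63.7 to 76.1 RPKM and 47.5 to 70.9 RPKM, and stellate cell markers to 76.0 to 112 RPKM and 69.2 to 100 RPKM. No monocyte, neutrophil or muscle marker reached the level needed for testing, and Acta1 and Actc1 were listed at 0 in all 6 libraries. In whole liver, fewer cells of a type and less RNA per cell cannot be told apart.

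Controls, which shared no library with the 28Si mice, addressed whether the same shift occurred without the ion. In control liver 50 of 11074 genes (0.452%) passed both thresholds between 1 and 2 months, 22 higher and 28 lower. The count was 31 without control 2 month replicate 2 and 111 without control 1 month replicate 3. Of these, 21 were also among the 83 of 28Si liver, 25.3% of the 28Si list and 42% of the control list, and all 21 changed in the same direction. They included Mt1, Mt2, Gpcpd1, Gbp11, Osbpl3, Creld2, G6pc, Ppp1r3b, Tat, Tubb2a, Acly, Acacb and Fasn. Of the 82 genes called in 28Si liver that were also tested in controls, 77 had the same sign there, and so did 61.8% of the 10857 genes tested in both.

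In the fatty acid list the control median was -0.53, as in 28Si, and 7 of 22 passed at adjusted p of 0.05, a level that 0.858% of all genes passed in controls. In the cholesterol list the control median was -0.25 with 3 members past, in the ER stress list 0.56 with 3 past against a median of 0.21 in 28Si, and among mitochondrially encoded proteins 0.86 with 4 past. Fasn fell by 1.48 and Acly by 1.12 in controls (log2, limma adjusted p = 0.00127 and 0.00239). Gys2 rose in controls by 0.79 (log2, limma adjusted p = 0.0172). Mt1 rose from a mean of 12.2 to 61.9 RPKM in controls, by 2.19 (limma adjusted p = 0.00393), and Mt2 by 2.69 (limma adjusted p = 0.0157). In controls 1 of 14 core clock genes passed, Per1 (log2 -1.06, limma adjusted p = 0.0497). Among 9 clock output genes 1 passed there, Noct (log2 -1.99, limma adjusted p = 0.0325). In 28Si liver Per1 differed by 0.57 and Noct by -0.17, and neither passed. The control differences of Dbp, Per3 and Arntl were 0.36, 0.26 and -0.44 (log2, limma adjusted p = 0.231, 0.574 and 0.455).

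The difference between the 28Si and control shifts was tested over 12 libraries. It passed both thresholds for 3 of 11479 genes (0.0261%), and 830 had an unadjusted p under 0.05. No gene passed without 28Si 2 month replicate 2 or without replicate 3, where 675 and 873 had an unadjusted p under 0.05, and 5 passed without replicate 1. Dbp rose by 1.44 ± 0.18 more in 28Si than in control liver (log2, SE, limma adjusted p = 0.0101), where controls read 42.1 to 49.2 RPKM at 1 month and 50.95 to 69.7 RPKM at 2 months. Nrg4 rose by 1.62 ± 0.23 more (limma adjusted p = 0.0197), with control means of 5.16 and 5.08 RPKM. Osgin1, an oxidative stress induced growth inhibitor, differed the other way, by -1.84 ± 0.24 (limma adjusted p = 0.0101).

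Osgin1 passed in controls (log2 1.77, limma adjusted p = 0.00199) and not in 28Si liver. In 28Si liver it read 48.8, 52.9 and 44.4 RPKM at 1 month and 42.8, 39.2 and 49.5 RPKM at 2 months, whereas controls went from 19 to 26.4 RPKM to 65.2 to 105 RPKM. For the other clock genes the difference of shifts missed the threshold, with Ciart at 2.57 ± 0.42 (log2, SE, limma adjusted p = 0.0615), Arntl at -2.09 ± 0.44 (limma adjusted p = 0.208) and Per3 at 1.54 ± 0.30 (limma adjusted p = 0.192). The metallothionein shifts were larger in 28Si by 2.39 ± 0.69 for Mt2 and 1.66 ± 0.45 for Mt1, which did not pass (limma adjusted p = 0.423 and 0.38). Cyp7a1 fell in controls by 1.31 (limma adjusted p = 0.0213) and had a difference of shifts of 2.32 (limma adjusted p = 0.0615).

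Fewer genes passed both thresholds between the same times after 56Fe and 16O. In 56Fe liver 21 of 11151 genes (0.188%) passed both thresholds and in 16O liver 2 of 11105 (0.0180%). At limma adjusted p of 0.05 alone, 110 genes passed in 56Fe and 2 in 16O liver, against 236 in 28Si and 95 in control liver. An unadjusted limma p under 0.05 was reached by 1749 genes in 56Fe and 654 in 16O liver. The same count was 1668 in 28Si and 1617 in control liver. Against the mean shift of the control, 56Fe and 16O groups, the 28Si shift differed past both thresholds in 107 of 11870 genes (0.901%), and 273 (2.30%) passed adjusted p of 0.05 alone. The count was 60 without 28Si 1 month replicate 1. This test shares its 28Si libraries with the test against controls and is not independent of it.

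The 24 genes named for their size were chosen on the same 28Si libraries, so their differences are given as values and how many passed is no result. Dbp differed by 1.84 ± 0.16 (log2, SE, limma adjusted p = 5.58e-07), Tubb2a by -2.73 ± 0.28 (limma adjusted p = 1.15e-05) and Mt1 by 3.46 ± 0.45 (limma adjusted p = 0.000182). Tubb2a rose by 1.52 in 56Fe liver (limma adjusted p = 0.00101), differed by 1.24 in 16O liver (limma adjusted p = 0.319) and fell in 28Si and control liver. Arntl differed by -2.91 (limma adjusted p = 6.88e-05), Clock by -1.12 (limma adjusted p = 0.000182) and Ciart by 2.76 (limma adjusted p = 0.0011). G6pc, Ppp1r3b, Gbp11, Gm45044 and AC157910.3 did not pass, nor did Fasn (-0.48, limma adjusted p = 0.484).

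**Figure D4:**
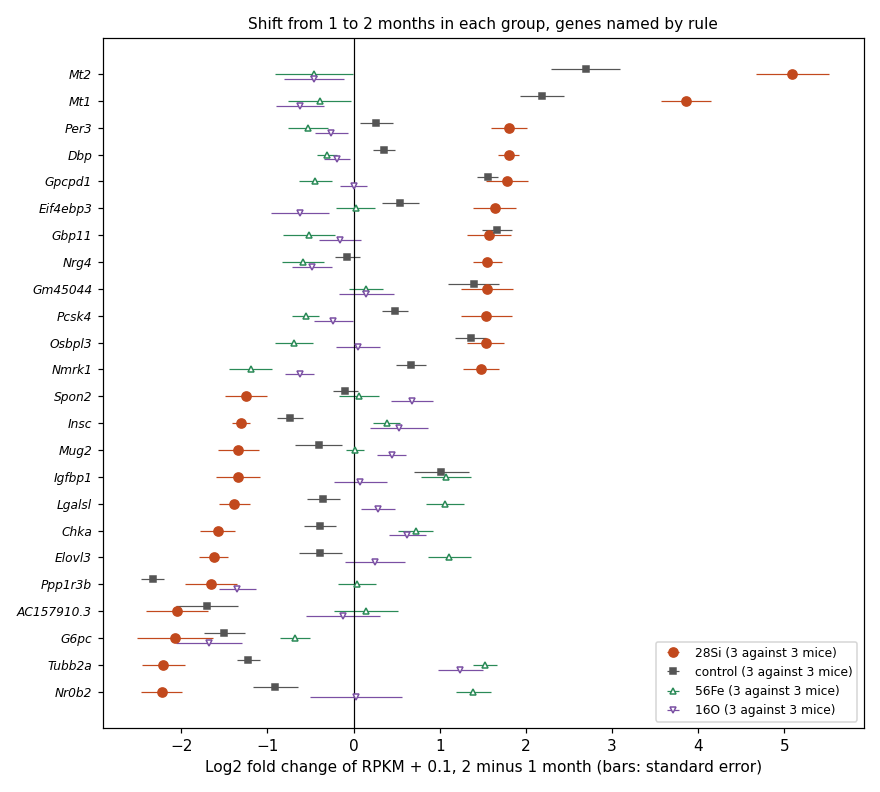
Log2 difference between 2 and 1 months (standard error bars, 3 against 3 mice) for the 24 genes with the largest changes in 28Si liver, in 28Si, control, 56Fe and 16O liver. Gpcpd1, Gbp11 and Osbpl3 rise in both 28Si and control liver, Dbp is at 1.80 in 28Si and 0.36 in controls, and Tubb2a has opposite signs in 28Si and 56Fe.

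At 4, 9 and 12 months Dbp and Arntl of 28Si mice were on the side of their 2 month level. Dbp had means of 36.2, 42.4 and 63.5 RPKM at these times, compared with 15.3 ± 1.60 RPKM (SD, n = 3) at 1 month and 50.9 ± 12.5 RPKM at 2 months. Arntl had means of 0.539, 1.18 and 0.666 RPKM after 3.00 ± 0.753 RPKM at 1 month. Controls ranged from 45.6 to 64.6 RPKM in mean Dbp and from 0.347 to 1.35 RPKM in mean Arntl over the 5 times. The 1 month 28Si mean lay outside those control means in both genes.

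Metallothionein varied widely later. Mt1 in 28Si mice read 11.2 to 69.3 RPKM at 4 months, 27 to 509 RPKM at 9 months and 57.4 to 154 RPKM at 12 months, and controls at 4 months read 78.6 to 530 RPKM. Both groups had their lowest mean at 1 month, where 28Si mice read 3.73 to 12.9 RPKM and controls 11.1 to 12.96 RPKM. Nr0b2 in 28Si mice returned to a mean of 14.5 RPKM at 9 months from 3.53 RPKM at 2 months, and Osgin1 was 17.1 to 18.1 RPKM in mean at the 3 later times.

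**Figure D5:**
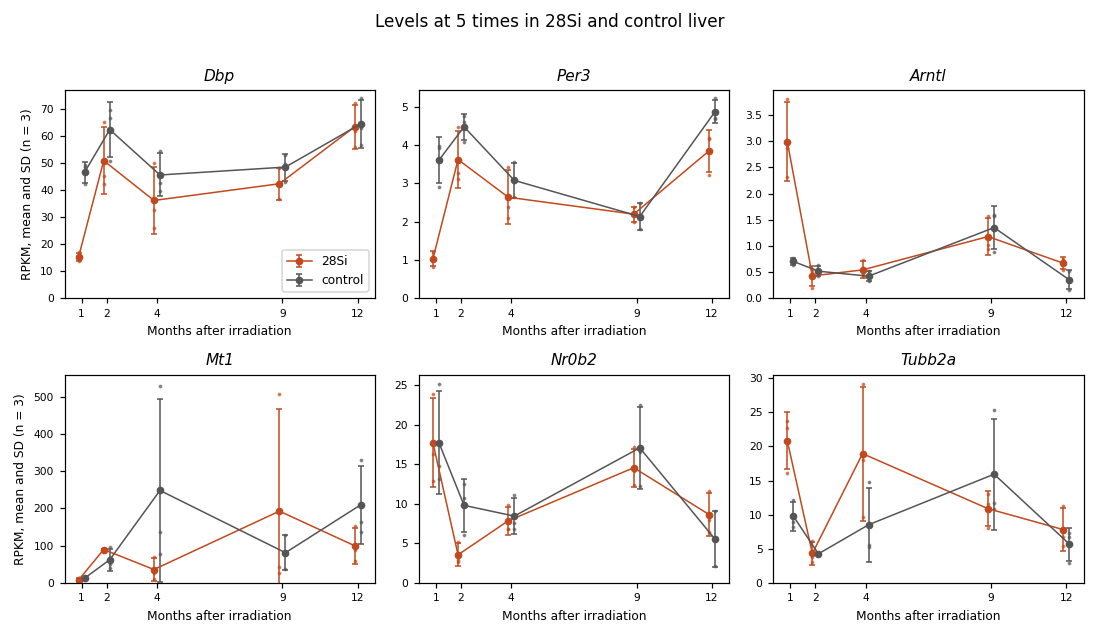
Mean RPKM with SD (n = 3) and single mice at 1, 2, 4, 9 and 12 months in 28Si and control liver for 6 genes; axes start at 0, which hides the lower end of some SD bars. Dbp and Per3 are low and Arntl is high in 28Si mice at 1 month alone.

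At the level of transcripts, 1 of 25540 passed both thresholds (0.00392%), a protein-coding Dbp transcript (ENSMUST00000211357). It was listed at 0, 0.0646 and 0 RPKM at 1 month and at 10.98, 10.6 and 15.6 RPKM at 2 months (limma adjusted p = 0.00112). How reads were divided among the 5 Dbp transcripts affects this value. It can also affect the sum over transcripts given above, since RPKM divides reads by the length of each transcript. Dbp as a gene kept its call in all 19 alternatives, limma-voom on estimated reads among them. The next lowest adjusted p values were 0.0523 for a Fam162a transcript, listed at 0 in all 3 mice at 1 month and at 2.26 to 4.92 RPKM at 2 months, and 0.097 for a Chka transcript. With any mouse at 2 months left out no transcript passed in limma, where 1440 to 1747 had an unadjusted p under 0.05, and 6 passed without 28Si 1 month replicate 1.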

How the data were processed

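Liver RNA from 60 mice was depleted of rRNA and sequenced in 50-base paired reads. According to the study's methods, reads lost 14 bases at their 5′ ends and were mapped by the authors to GRCm38 with annotation 97 in CLC Genomics Workbench 12.0.3, at 95% length and similarity, and the deposited values are RPKM per transcript. Groups, 3 mice each, come from the labels. Replicate numbers only name mice, and p-values measure the spread between these mice.

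RPKM was summed over transcripts of a gene. Libraries were scaled by unweighted trimmed means (30% of M values, 5% of A values). A gene entered the test when 3 or more libraries of the fit reached 0.5 RPKM, and genes were tested with limma 3.58.1 (R 4.3.3, trend) on log2(RPKM + 0.1), with Benjamini-Hochberg adjustment over all genes tested. The study tested counts, which were not used here. Fold changes on this scale understate changes of low genes. A call needed adjusted p of 0.05 and a 2-fold change, while "rose" and "fell" need the adjusted p alone. Whole reads were recovered from low values within 0.02 of a read (99.769% to 99.887% whole), which gave depth and limma-voom, an alternative. Named genes were the 12 largest rises and 12 largest falls past both thresholds with mean log2 of at least 1 and no overlap, list members past adjusted p, and genes past both thresholds against controls. The members were taken by label, but both they and the lists were chosen with earlier results of these data known. Scaling, pseudocount, filter, libraries in the fit, the replicate block, trend, protein-coding genes and leaving out each mouse were varied. The procedure was tested on simulated data. The table also holds the authors' group means, which were not used. Some list members are not reported here by name.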

Additional observations from a re-analysis of the deposited data

Results flagged for a closer look

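The genes listed here passed a limma contrast, with Benjamini-Hochberg adjustment, of the shift between 1 and 2 months. The 28Si shift was set against the control shift or against the mean shift of the other groups. All but Osgin1 were named for the size of their change in the same 28Si libraries, so how many passed is no result. Osgin1 was named because it passed against controls. Against the control shift, only Dbp, Nrg4 and Osgin1 passed. Mt1, Mt2, Gpcpd1, Osbpl3 and Tubb2a also passed both thresholds in control liver, in the same direction as in 28Si liver. Both contrasts use the same 28Si and control libraries and are not independent. Values are log2 differences of shifts.

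Against the control shift, Dbp differed by 1.44, Nrg4 by 1.62 and Osgin1 by -1.84. Against the mean shift of control, 56Fe and 16O liver, the metallothionein genes Mt2 and Mt1 differed by 4.50 and 3.46. The clock genes Per3 and Dbp differed by 1.98 and 1.84. Among the other genes that rose in 28Si liver, Nrg4 differed by 1.93, Nmrk1 by 1.86, Eif4ebp3 by 1.65, Pcsk4 by 1.64, Gpcpd1 by 1.40 and Osbpl3 by 1.29.

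Among genes that fell in 28Si liver, Tubb2a differed by -2.73, Nr0b2 by -2.41 and Igfbp1 by -2.07. Elovl3 differed by -1.95, Chka by -1.90 and Lgalsl by -1.72. Spon2 differed by -1.47, Insc by -1.37 and Mug2 by -1.36. Osgin1, which did not pass in 28Si liver itself, differed by -1.03.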

How the results depend on the processing

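The 83 calls of 28Si liver became 49 with a pseudocount of 1 RPKM, all of them among the 83, and ranged from 48 to 83 with 1 mouse left out. Limma-voom on recovered reads called 108, of which 75 were among the 83. The transcript count of 1 became 10 with a pseudocount of 1 RPKM, 9 with a filter at 2 RPKM, and 0 to 6 with 1 mouse left out. The 3 genes whose shift differed from controls became 1 on RPKM as deposited, 5 with a filter at 2 RPKM, and 0 to 5 with 1 mouse left out. The 107 genes that differed from the other 3 groups became 53 with a pseudocount of 1 RPKM and 60 to 119 with 1 mouse left out. The 50 control calls ranged from 31 to 111 with 1 mouse left out. No result changed direction. The causes were not tested.

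Replicate numbers did not pair the mice, since deviations of mice with the same number correlated at -0.0101, 0.122 and -0.0405. With the replicate block 87 genes were called in 28Si liver, of which 77 were among the 83, 81 in controls, and 0 transcripts by limma, where 1889 had an unadjusted p under 0.05. Groups of 3 mice and 15198002 read pairs in the shallowest library limit the precision.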
